A study of Arabidopsis thaliana with 12 samples.

Results

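The genes described here are the 33 members of the xyloglucan endotransglucosylase/hydrolase family of Arabidopsis thaliana, XTH1 to XTH33. They were chosen by their gene identifiers, with no measured value in the rule, and all 33 were found among the 33557 genes of the deposited values. Roots of wild-type Col-0 seedlings were profiled by messenger RNA sequencing after 1.5, 6 and 24 h with 30 µM arsenate, As(V), or as mock, with 2 libraries in each of 6 groups. Per the labels, seedlings of every group, mock included, grew for 7 days on medium with 1 mM phosphate and for 2 days on plates named J-P, read here as the same medium without phosphate. As(V) was then given in liquid J-P, the labels do not state what the mock liquid held, and each library came from 60 seedlings. The labels do not say that the libraries of a group came from separate cultures, so p-values measure the spread between these libraries, which may be technical.

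Xyloglucan is a hemicellulose that coats and tethers cellulose microfibrils in the primary wall. XTH enzymes cut a xyloglucan chain and join the new end to another chain, and some members hydrolyse it instead, so that the wall can be loosened, extended or stiffened. In roots, members of the family are known from elongating cells and from root hairs. Arsenate is taken up by phosphate transporters.

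Levels are the authors' deposited FPKM, fragments scaled to gene length and library size, so that they can be compared between genes. Changes are differences of log2(FPKM + 1) between As(V) and mock with their standard error (SE), fitted with limma over all 12 libraries. A gene was called where its p-value, adjusted by Benjamini-Hochberg over 19899 tested genes, was under 0.05. The added 1 FPKM understates the change of weakly expressed genes. Libraries held an estimated 12.66 to 15.97 M reads in genes. Markers of root tissues were present in every group, with none of 7 root hair, 4 endodermis and 3 stele genes at 0 in both libraries of any group. The 5 leaf mesophyll markers were also present, at a summed 35.1 to 214 FPKM, and they differed between replicates at 1.5 h: 77.9 against 157 FPKM in mock and 55.6 against 214 FPKM with As(V).

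The family is commonly divided by protein sequence into groups I, II, IIIA and IIIB. The enzymes of the family are known for a shared active site motif. A pattern of this motif, searched in the translated coding sequences, matched 31 of the 33 members, all but XTH9 and XTH11. A difference at any fixed position of the pattern prevents a match, so XTH9 and XTH11 are not shown to lack the site. The coding sequence of the motif is shown for the members whose changes are described most closely below, among them close relatives that moved in opposite directions. Sequences are from RefSeq, assembly TAIR10.1, 5′ to 3′ on the coding strand, and capitals mark bases that differ from the most frequent base of the family at that position.
XTH17 (chromosome 1, coding bases 370 to 399): TgggatgagatCgatttCgagttCttgggA
XTH18 (chromosome 4, coding bases 304 to 333): TgggatgagatTgatttCgagttCttAggA
XTH19 (chromosome 4, coding bases 289 to 318): TgggatgagatTgatttCgagtttttgggg
XTH20 (chromosome 5, coding bases 304 to 333): TgggatgaAatagattttgagttCttgggA
XTH22 (chromosome 5, coding bases 283 to 312): TgggaCgagatagatttCgagtttttAggg
XTH23 (chromosome 4, coding bases 292 to 321): TgggaCgagatTgaCtttgagttCttgggA
XTH27 (chromosome 2, coding bases 316 to 345): cATgatgagatagattttgagtttCtTggT
XTH28 (chromosome 1, coding bases 316 to 345): cATgaCgagatTgattttgagtttttgggg
XTH31 (chromosome 3, coding bases 334 to 363): cACgatgagGtCgatAtCgagtttCtAggg
Over all 528 pairs of members, the identity of aligned coding bases ran from 59.6% to 92.2%, with a median of 64.7%. XTH17 and XTH18 were the closest pair, at 92.2%. Of the 50-base windows of a transcript, at most 1.63% occurred elsewhere in the genome for every member but XTH21, where it was 7.15%. Reads of 50 bases could therefore mostly be assigned to 1 member. XTH18 and XTH19, 1500 bases apart on chromosome 4, held most of their shared windows in common.

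In mock roots the family was led by XTH14 and XTH31. XTH14, a root member of group II, stood at 426 and 513 FPKM at 1.5 h, 518 and 593 at 6 h, and 513 and 555 at 24 h. XTH31, of group IIIA, whose enzyme is known mainly as a xyloglucan hydrolase, stood at 267 and 278, 487 and 460, and 441 and 461 FPKM. Together they made up 42.0% to 54.0% of the summed FPKM of the family in the 6 mock libraries. XTH15, XTH26, XTH18 and XTH12 followed, with mock medians of 103, 84.0, 83.2 and 79.9 FPKM. At the other end, XTH1, XTH2 and XTH3 were listed at 0 in all 12 libraries. XTH25 was listed above 0 only in 1 library, As(V) at 24 h replicate 1, at 0.0688 FPKM. XTH6 reached at most 0.399 and XTH29 at most 1.07 FPKM. These 6 members did not pass the filter on low values and were not tested, which left 27.

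**Figure D1:**
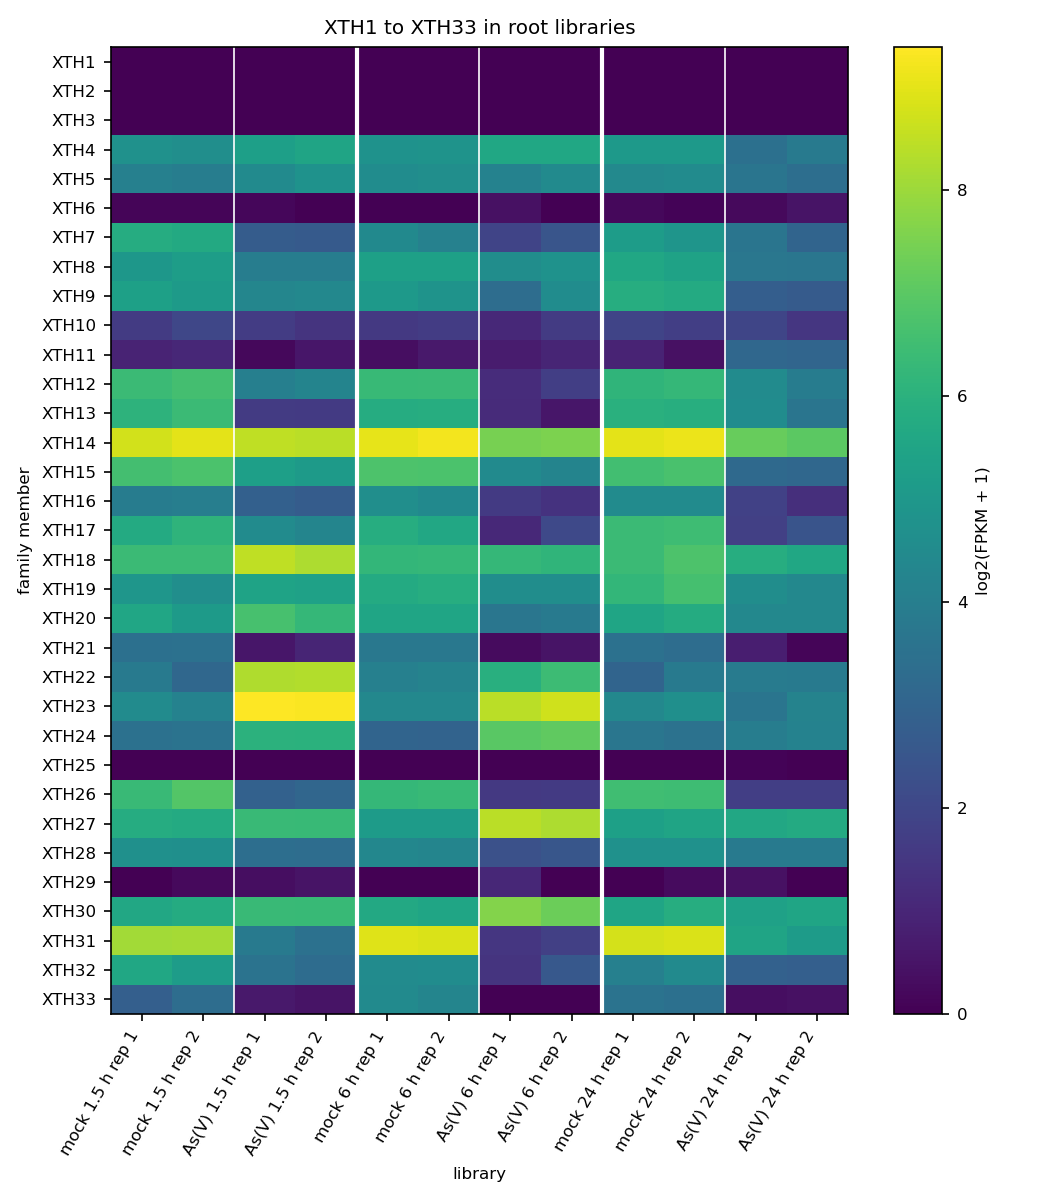
Level of each of the 33 XTH genes (rows) as log2(FPKM + 1) in each of the 12 libraries (columns), grouped by time. XTH14 and XTH31 are bright in the mock libraries, XTH23 is brightest with As(V) at 1.5 h, and XTH1, XTH2 and XTH3 are at 0 throughout.

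After 1.5 h with As(V), 10 members were higher, 15 were lower and 2, XTH10 and XTH11, were not called. Of all tested genes, 63.2% were called in this comparison, 29.9% higher and 33.3% lower. The median change of the 27 members was -0.89, against -0.09 over all tested genes. Changes past 2 on the log2 scale were upward in 3 members and downward in 7, while 6.47% and 3.08% of all tested genes went as far. At 6 h, 6 members were higher, 17 lower and 4 not called, beside 72.6% of all tested genes called, 35.4% higher and 37.2% lower. The median was -1.61, against -0.13 over all tested genes, and 4 members lay past 2 upward and 11 downward, beside 11.3% and 5.78% of all tested genes. At 24 h, 3 members were higher, 21 lower and 3 not called, beside 65.1% of all tested genes called, 29.1% higher and 36% lower. The median was then -1.71, against -0.06, and 1 member lay past 2 upward and 8 downward, beside 1.62% and 3.82% of all tested genes. Since most genes were called at each time, a call on its own sets no member apart.

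The direction of small changes rested on the scaling of the libraries. The size by which the deposited values are scaled was 0.634 and 0.650 times the estimated reads in the As(V) libraries at 1.5 h and 0.444 and 0.459 times at 6 h, but 0.973 to 1.03 times in mock. Scaled to library totals instead, the median change of all tested genes was -0.58, -1.01 and 0.03 at the 3 times. With those totals 5 members were higher and 15 lower at 1.5 h, 5 and 21 at 6 h, and 3 and 21 at 24 h. Of all tested genes, 15.6% were then higher and 60.8% lower at 1.5 h, 16.7% and 68.5% at 6 h, and 34.6% and 31.7% at 24 h. XTH5, XTH10 and XTH18, not called at 6 h with the deposited scaling, were called lower there. Relative to the median of all genes, the called increases of XTH4, XTH5, XTH19, XTH27 and XTH30 at 1.5 h and of XTH4 at 6 h kept a positive value under either scaling. Rescaling a library shifts all genes by nearly the same amount, so this outcome was nearly fixed in advance and checks none of these increases.

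**Figure D2:**
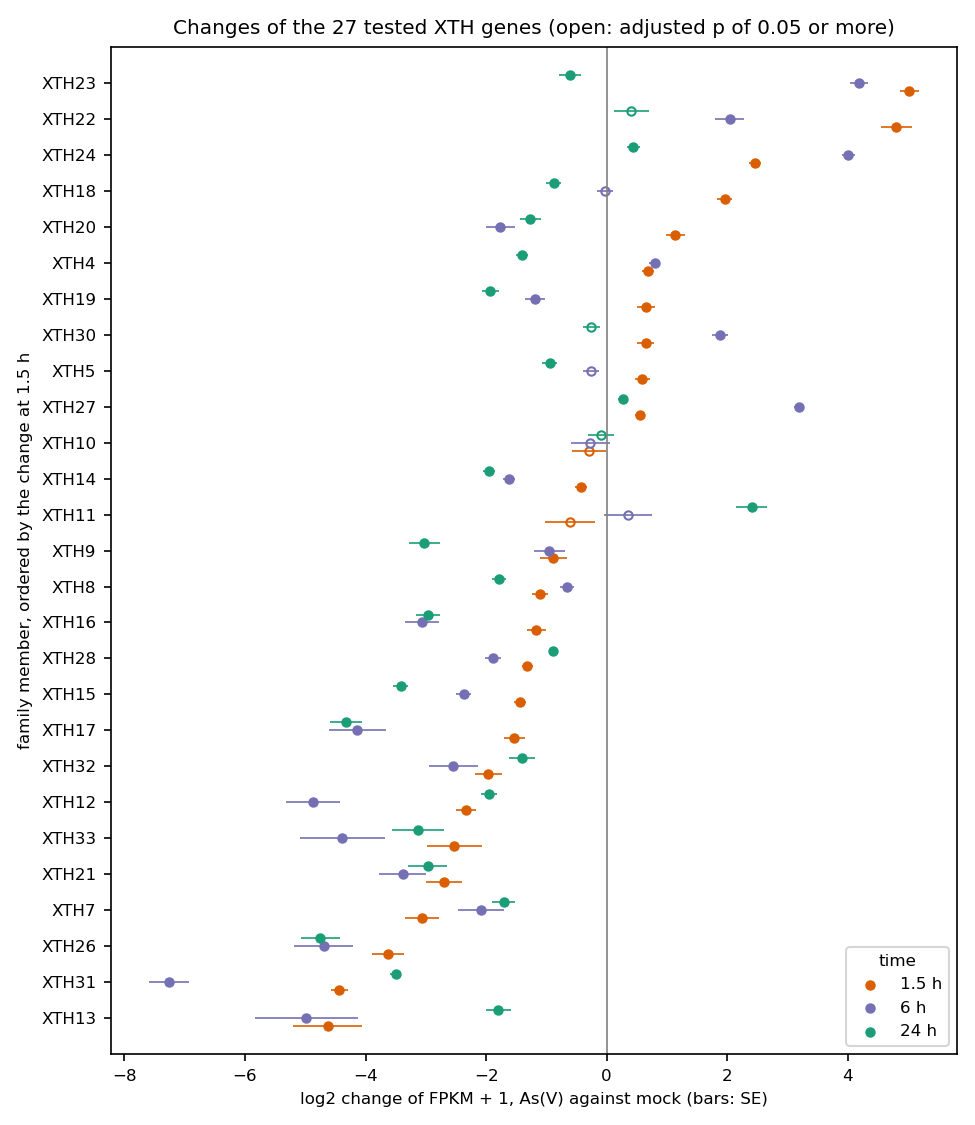
Change of each of the 27 tested XTH genes as the log2 difference of FPKM + 1 between As(V) and mock, with bars for the SE, at 1.5, 6 and 24 h; open points had an adjusted p of 0.05 or more. XTH23, XTH22 and XTH24 lie farthest to the right at 1.5 h, XTH31 farthest to the left at 6 h; scaled to library totals, XTH27 at 1.5 h and XTH4 and XTH11 at 6 h change sign.

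The members with the largest increases at 1.5 h belonged to group II. XTH23 (AT4G25810, chr4:13128394-13129927 in TAIR10.1, as for the positions of other genes here) stood at 21.9 and 17.1 FPKM in mock at 1.5 h and at 667 and 647 with As(V). At 6 h it stood at 19.7 and 19.9 FPKM in mock and at 342 and 417 with As(V). The groups were far apart at both times, with changes of 5.02 ± 0.16 (limma, adjusted p = 1.3e-09) and 4.18 ± 0.15 (adjusted p = 1.1e-09). At 24 h the order had turned: XTH23 was at 19.9 and 24.4 FPKM in mock and 11.7 and 17.2 with As(V), a fall of -0.61 ± 0.19 (limma, adjusted p = 0.014). That last call was lost without replicate 2 of mock at 24 h (-0.48, adjusted p = 0.095) and without replicate 1 of As(V) at 24 h (-0.33, adjusted p = 0.18).

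XTH22 (AT5G57560, chr5:23307006-23308680), known as TOUCH4 and induced by touch in Arabidopsis, is 82.4% identical to XTH23. Mock libraries at 1.5 h gave 13.3 and 7.76 FPKM and As(V) libraries 308 and 315. At 6 h the values were 15.95 and 17.4 against 60.3 and 85.0 FPKM, and at 24 h 7.22 and 13.7 against 13.8 and 13.1. The groups did not overlap at 1.5 or 6 h, and XTH22 rose by 4.80 ± 0.26 at 1.5 h (limma, adjusted p = 1.9e-07) and 2.04 ± 0.24 at 6 h (adjusted p = 3.1e-05), the latter 0.88 with library totals (adjusted p = 0.0066). The change at 24 h, 0.41 ± 0.29, was not called (adjusted p = 0.25).

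XTH24 (AT4G30270, chr4:14819192-14820595), also named MERI5, behaved differently in time. It stood at 10.4 and 11.04 FPKM in mock and 64.6 and 62.6 with As(V) at 1.5 h, and at 7.24 and 6.97 against 124 and 134 at 6 h. The rise of 4.01 ± 0.10 at 6 h (limma, adjusted p = 8.4e-11) exceeded that of 2.46 ± 0.10 at 1.5 h, with a difference between the effects of 1.54 ± 0.14 (adjusted p = 1.0e-05). At 24 h it was still higher, at 14.7 and 17.1 against 12 and 10.7 FPKM (0.44 ± 0.10, adjusted p = 0.0030).

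In group IIIB, 2 members rose mostly at 6 h. XTH27 (AT2G01850, chr2:385171-387478) was at 34.1 and 34.6 FPKM in mock and 343 and 300 with As(V) at 6 h, a rise of 3.19 ± 0.08 (limma, adjusted p = 6.3e-11). At 1.5 h it was at 55.5 and 52.1 against 81.1 and 78.3 FPKM, a change of 0.56 ± 0.08 (adjusted p = 0.00013) that was -0.04 when scaled to library totals (adjusted p = 0.61). At 24 h, 39.2 and 43.7 stood against 48.3 and 51.9 FPKM (0.27 ± 0.08, adjusted p = 0.014). The call at 24 h was lost without replicate 1 of mock at 24 h (adjusted p = 0.11) or replicate 2 of As(V) at 24 h (adjusted p = 0.087). XTH30 (AT1G32170, chr1:11575320-11578030) was at 49.4 and 44.4 FPKM in mock and 198 and 155 with As(V) at 6 h, a rise of 1.88 ± 0.13 (adjusted p = 2.4e-07) that was 0.71 with library totals (adjusted p = 0.00024). At 1.5 h its values were 48.1 and 53.2 against 81.1 and 78.3 FPKM (0.64 ± 0.14, adjusted p = 0.0020), which was 0.04 with library totals (adjusted p = 0.76), and at 24 h the groups overlapped (-0.25 ± 0.14, adjusted p = 0.13). The effect at 6 h was larger than at 1.5 h by 2.63 ± 0.11 for XTH27 and 1.24 ± 0.19 for XTH30 (adjusted p = 1.1e-07 and 0.00040).

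**Figure D3:**
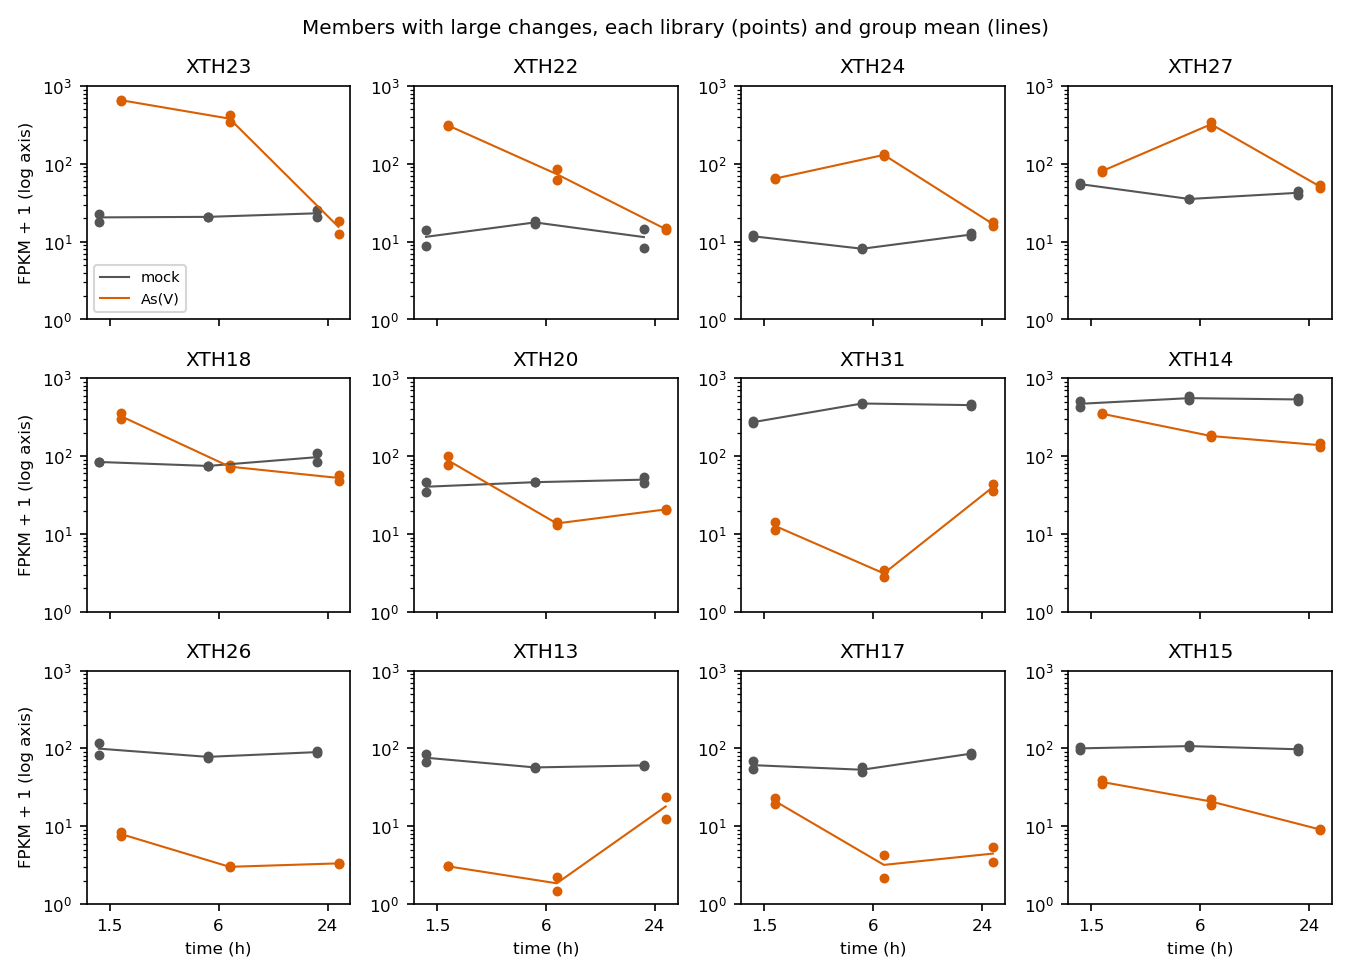
FPKM + 1 on a log axis of 12 members at 1.5, 6 and 24 h, with a point for each library and lines through the group means, mock in grey and As(V) in orange. XTH23 and XTH22 stand above mock at 1.5 and 6 h and near it at 24 h, XTH27 peaks at 6 h, and XTH26, XTH15 and XTH17 stay below mock.

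The members that fell included the most abundant ones. XTH31 (AT3G44990, chr3:16446935-16448844) dropped from 267 and 278 FPKM in mock to 13.1 and 10.3 with As(V) at 1.5 h, and from 487 and 460 to 1.80 and 2.42 at 6 h. At 24 h it was at 43.2 and 34.7 against 441 and 461 FPKM. The changes were -4.44 ± 0.14, -7.26 ± 0.32 and -3.50 ± 0.09 (limma, adjusted p = 1.4e-09, 4.9e-09 and 2.9e-09). The fall at 6 h was deeper than at 1.5 h by -2.82 ± 0.35 (adjusted p = 8.8e-05). XTH32, the other member of group IIIA, fell, with a change of -1.96 ± 0.23, -2.54 ± 0.41 and -1.40 ± 0.22 at the 3 times.

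XTH26 (AT4G28850, chr4:14244290-14246037), known from root hairs, was at 81.1 and 116 FPKM in mock at 1.5 h and at 6.47 and 7.47 with As(V). Later values with As(V) were 1.98 and 2.05 FPKM at 6 h and 2.31 and 2.36 at 24 h, while mock stayed between 75.1 and 90.6. XTH26 fell, with a change of -3.62 ± 0.26, -4.69 ± 0.49 and -4.75 ± 0.32 (limma, adjusted p = 5.7e-07, 6.5e-06 and 4.3e-07). The tandem neighbours XTH12 and XTH13, 1097 bases apart on chromosome 5, were both lower at all 3 times. XTH13 (AT5G57540, chr5:23302787-23304095) went from 66.8 and 83.1 FPKM to 2.07 and 2.05 at 1.5 h (-4.63 ± 0.57, adjusted p = 4.1e-05) and from 55.0 and 57.0 to 1.23 and 0.467 at 6 h (-4.98 ± 0.86, adjusted p = 0.00036). At 24 h it was at 22.6 and 11.4 against 60.8 and 58.3 FPKM (-1.79 ± 0.21, adjusted p = 2.5e-05). XTH12 fell, with a change of -2.34 ± 0.17, -4.87 ± 0.45 and -1.95 ± 0.14 at the 3 times, with 1.31 and 2.31 FPKM left at 6 h.

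Markers of root hairs moved with these members. All 7 root hair genes were lower with As(V) at 1.5 and 6 h and 6 of 7 at 24 h, and their summed level was 800 to 1011 FPKM in mock and 131 to 285 FPKM with As(V). The 3 stele genes were lower at all 3 times, and their summed level was 150 to 201 FPKM in mock and 71.6 to 126 FPKM with As(V). Of the 4 endodermis genes, 4, 3 and 4 were lower at 1.5, 6 and 24 h, with sums of 226 to 330 FPKM in mock and 64.1 to 136 FPKM with As(V). Of 3 root cap genes, 1, 2 and 2 were lower. Of all tested genes, 33.3%, 37.2% and 36% were lower at these times. With library totals the counts of root hair genes were the same, and those of stele genes 3, 3 and 2. Those of endodermis genes were then 4, 4 and 3 and of root cap genes 3, 3 and 1, beside 60.8%, 68.5% and 31.7% of all tested genes. The part of these marker shifts in the XTH values was not tested, and in whole roots fewer cells of a type and less RNA per cell cannot be told apart.

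Other members fell more at 6 and 24 h than at 1.5 h. XTH15 (AT4G14130, chr4:8137020-8138392) went from 94.0 and 104 FPKM in mock to 38.6 and 33.5 with As(V) at 1.5 h, and was at 21.6 and 18.0 at 6 h and 8.33 and 7.85 at 24 h with As(V). Its changes were -1.44 ± 0.10, -2.37 ± 0.12 and -3.42 ± 0.12 (limma, adjusted p = 3.2e-07, 1.8e-08 and 1.3e-08), and the effect at 24 h lay -1.98 ± 0.16 below that at 1.5 h (adjusted p = 2.1e-06). XTH16, its closest relative at 81.7%, fell, with a change of -1.16 ± 0.16, -3.06 ± 0.28 and -2.96 ± 0.19. XTH14 fell little at first, from 426 and 513 to 356 and 342 FPKM (-0.42 ± 0.10, adjusted p = 0.0032), and then to 176 and 184 at 6 h (-1.61 ± 0.10) and 146 and 129 at 24 h (-1.95 ± 0.10).

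XTH7 was at 55.6 and 51.0 FPKM in mock and 5.66 and 5.33 with As(V) at 1.5 h (-3.06 ± 0.28, limma, adjusted p = 3.7e-06), and it fell, with a change of -2.09 ± 0.38 at 6 h and -1.71 ± 0.19 at 24 h. Mock was itself lower at 6 h, at 21.1 and 16.2 FPKM, beside 2.75 and 4.57 FPKM with As(V). XTH21, known for a part in root growth, was at 9.99 and 10.3 FPKM in mock and 0.491 and 0.970 with As(V) at 1.5 h (-2.70 ± 0.30, adjusted p = 1.5e-05). It stayed under 1 FPKM with As(V) at 6 and 24 h. XTH33, whose protein is known to sit at the plasma membrane, was at 6.21 and 9.24 FPKM in mock at 1.5 h and 0.568 and 0.421 with As(V) (-2.53 ± 0.46, adjusted p = 0.00062). At 6 h it was listed at 0 in both As(V) libraries, beside 21.4 and 18.5 FPKM in mock, and at 24 h it was at 0.272 and 0.337 against 10.8 and 9.93 FPKM. In all, 15 members were lower at all 3 times: XTH7, XTH8, XTH9, XTH12 to XTH17, XTH21, XTH26, XTH28 and XTH31 to XTH33. XTH24 and XTH27 were higher at all 3 times, but XTH27 was not called at 1.5 h with library totals. Its call at 24 h was lost in fits that left out a library, as given above. Of all tested genes, 33.3%, 37.2% and 36% were lower at 1.5, 6 and 24 h, and 29.9%, 35.4% and 29.1% higher. The share with the same direction at all 3 times was not counted.

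With XTH23, 6 members were called in opposite directions at different times, and the difference between the effects was itself called for each. The share of all tested genes so called was not counted. With library totals XTH4, XTH5 and XTH19 were not called higher at any time. For XTH23 the call at 24 h was lost in fits that left out a library. Under these settings XTH18 and XTH20 kept opposite calls. The 3 comparisons have separate mock libraries, but each difference below uses the 1.5 h libraries. XTH18 (AT4G30280, chr4:14825757-14827211) stood at 82.6 and 83.7 FPKM in mock and 353 and 300 with As(V) at 1.5 h (1.96 ± 0.12, limma, adjusted p = 1.4e-07). At 6 h the groups overlapped, at 73.2 and 74.4 against 75.4 and 69.2 FPKM (-0.03 ± 0.14, adjusted p = 0.85), while library totals gave a called fall there (-1.19, adjusted p = 1.2e-05). At 24 h XTH18 was at 83.8 and 108 against 56.2 and 46.7 (-0.88 ± 0.13, adjusted p = 0.00011). XTH20 (AT5G48070, chr5:19481897-19483527) rose from 45.6 and 33.2 to 99.98 and 75.2 FPKM at 1.5 h (1.14 ± 0.16, adjusted p = 8.5e-05). It fell from 45.3 in both mock libraries to 11.9 and 13.4 at 6 h (-1.76 ± 0.24, adjusted p = 6.6e-05) and from 44.3 and 53.4 to 19.6 and 19.7 at 24 h (-1.26 ± 0.17, adjusted p = 7.2e-05). XTH19 was at 29.2 and 23.6 FPKM in mock and 42.8 and 40.8 with As(V) at 1.5 h, a change of 0.65 ± 0.15 (adjusted p = 0.0030) that was 0.06 when scaled to library totals (adjusted p = 0.74). It was lower at 6 h, at 23.4 and 23.1 against 52.9 and 55.8 FPKM (-1.19 ± 0.17), and at 24 h, at 23.1 and 19.8 against 73.8 and 96.6 (-1.93 ± 0.13).

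XTH17 (AT1G65310, chr1:24257054-24258506) is the nearest relative of XTH18 and moved the other way at 1.5 h. It was at 53.0 and 67.0 FPKM in mock and 22.1 and 18.1 with As(V) (-1.53 ± 0.18, limma, adjusted p = 2.1e-05), while XTH18, XTH19 and XTH20 were higher. At 6 h XTH17 was at 1.14 and 3.24 against 56.0 and 48.5 FPKM (-4.14 ± 0.48), and at 24 h at 2.44 and 4.47 against 82.2 and 87.3 (-4.33 ± 0.27). Coding identity between XTH17 and XTH18, XTH19 and XTH20 was 92.2%, 88.6% and 85.7%. The test does not compare the members with each other.

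XTH4 was higher at 1.5 h, at 38.0 and 43.4 against 25.9 and 24.1 FPKM (0.68 ± 0.10, limma, adjusted p = 0.00012), and at 6 h, at 47.0 and 47.7 against 26.6 and 27.1 (0.80 ± 0.10, adjusted p = 2.2e-05). Scaled to library totals, these were 0.09 (adjusted p = 0.41) and -0.35 (adjusted p = 0.0050). At 24 h it was lower under either scaling, at 10.13 and 13.3 against 32.8 and 31.7 FPKM (-1.41 ± 0.11, adjusted p = 9.4e-07). XTH5 was at 21.6 and 26.5 against 16.2 and 14.9 FPKM at 1.5 h (0.59 ± 0.13, adjusted p = 0.0019), which was 0.01 with library totals (adjusted p = 0.93). At 6 h its values were 17.0 and 21.5 against 22.4 and 24.0 FPKM (-0.26 ± 0.13, adjusted p = 0.091), a called fall with library totals (-1.36, adjusted p = 5.9e-06), and at 24 h 11.6 and 9.49 against 20.2 and 22.3 (-0.95 ± 0.12, adjusted p = 6.1e-05). XTH11, singled out after its values were seen, was the member with the largest increase at 24 h, at 7.72 and 7.26 against 0.906 and 0.345 FPKM (2.41 ± 0.26, adjusted p = 1.2e-05).

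Between times, the As(V) effect at 6 h differed from that at 1.5 h in 16 members, 3 higher and 13 lower, where 43.3% of all tested genes differed, 26% higher and 17.4% lower. The effect at 24 h differed from that at 1.5 h in 21 members, 5 higher and 16 lower, where 59.5% of all tested genes differed, 27.5% higher and 32% lower. Both differences share the libraries of 1.5 h. In mock, 10 members differed between 6 and 1.5 h, 5 higher and 5 lower, where 20.4% of all tested genes did, 9.15% higher and 11.3% lower. Between 24 and 1.5 h in mock, 8 members were higher and 3 lower, where 23.6% of all tested genes were called, 12.2% higher and 11.4% lower. This count of 11 was 7 without replicate 1 of mock at 1.5 h, 7 without replicate 1 of mock at 24 h, and 6 in a fit with no weights and a mean-variance trend. XTH19 was higher by 1.02 ± 0.14 and 1.65 ± 0.13 in mock at 6 and 24 h than at 1.5 h (limma, adjusted p = 0.00057 and 1.2e-05), and XTH31 by 0.80 ± 0.08 and 0.73 ± 0.08 (adjusted p = 9.6e-05 and 9.1e-05).

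Close relatives did not always share a direction. Of 14 pairs with at least 75% coding identity, 13 had both members tested. In 9 of these both members were called in the same direction at 1.5 h and in 4 in opposite directions. The 4 were XTH17 with each of XTH18, XTH19 and XTH20, and XTH27 with XTH28. XTH28 was at 9.44 and 9.32 against 25.5 and 24.2 FPKM at 1.5 h and fell, with a change of -1.32 ± 0.09, -1.89 ± 0.14 and -0.89 ± 0.07 at the 3 times. At 6 h 9 pairs shared a direction and 1 was opposite, and at 24 h 10 and 1. Pairs that share a member are not independent. With library totals the rises of XTH19 and XTH27 at 1.5 h were not called, as given above.

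The 300 bases before the annotated start are shown for XTH17, XTH18 and XTH20, as close relatives with different directions at 1.5 h, and for XTH23 and XTH31, with the largest rise at 1.5 h and the largest fall at 6 h. They are from RefSeq TAIR10.1, 5′ to 3′ on the strand of the gene, and capitals mark the letters of the W-box (TTGAC), the CGCG-box (CGCGTT) and the as-1 core (TGACG), searched on both strands. The W-box and as-1 core can overlap as TTGACG.
XTH17 (chr1:24256754-24257053, plus strand): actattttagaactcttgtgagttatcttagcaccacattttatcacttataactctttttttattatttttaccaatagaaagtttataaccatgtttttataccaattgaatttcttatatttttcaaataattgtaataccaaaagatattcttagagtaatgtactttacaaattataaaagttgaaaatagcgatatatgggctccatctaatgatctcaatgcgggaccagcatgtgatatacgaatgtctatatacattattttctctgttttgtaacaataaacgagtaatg
XTH18 (chr4:14827212-14827511, minus strand): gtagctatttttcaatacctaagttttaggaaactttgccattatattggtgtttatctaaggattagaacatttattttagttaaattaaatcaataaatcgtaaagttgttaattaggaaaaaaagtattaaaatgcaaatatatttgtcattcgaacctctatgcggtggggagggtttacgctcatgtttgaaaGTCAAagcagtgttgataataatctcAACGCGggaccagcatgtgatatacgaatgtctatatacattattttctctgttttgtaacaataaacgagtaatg
XTH20 (chr5:19481597-19481896, plus strand): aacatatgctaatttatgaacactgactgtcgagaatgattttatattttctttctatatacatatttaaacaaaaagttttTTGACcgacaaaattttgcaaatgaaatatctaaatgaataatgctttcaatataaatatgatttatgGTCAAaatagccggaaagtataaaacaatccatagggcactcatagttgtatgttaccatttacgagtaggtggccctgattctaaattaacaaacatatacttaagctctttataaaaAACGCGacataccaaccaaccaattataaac
XTH23 (chr4:13128094-13128393, plus strand): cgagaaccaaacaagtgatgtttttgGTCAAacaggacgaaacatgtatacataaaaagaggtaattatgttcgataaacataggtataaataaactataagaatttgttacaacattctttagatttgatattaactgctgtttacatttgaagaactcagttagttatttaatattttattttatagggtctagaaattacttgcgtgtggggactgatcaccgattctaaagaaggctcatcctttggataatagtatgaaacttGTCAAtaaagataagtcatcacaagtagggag
XTH31 (chr3:16448845-16449144, minus strand): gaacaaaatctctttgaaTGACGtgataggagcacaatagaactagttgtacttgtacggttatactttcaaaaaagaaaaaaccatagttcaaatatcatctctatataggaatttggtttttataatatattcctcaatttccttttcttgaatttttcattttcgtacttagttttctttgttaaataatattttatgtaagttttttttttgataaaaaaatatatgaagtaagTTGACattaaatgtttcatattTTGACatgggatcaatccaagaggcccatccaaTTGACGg
The 73 bases next to the start were identical in XTH17 and XTH18, and no other pair of members shared more than 4 bases counted back from the start. That count went base by base, so stretches shared at an offset, as upstream of XTH13 and XTH14, were not counted. Upstream of the 73 bases of XTH17 and XTH18, the first differing base lay 74 bases before the start. It lay inside the CGCG-box of XTH18, and XTH17 held no CGCG-box. The CGCG-box occurred upstream of 3 members, XTH13, XTH18 and XTH20, and of 3.1% of 27443 promoters of this length. A W-box occurred upstream of 17 members and 50.4% of promoters, and the as-1 core upstream of 6 members and 21.3%. The heat shock element (GAANNTTC) was found in 1 member and 11.5% of promoters, and the phosphate starvation element P1BS (GNATATNC) in 2 members and 6.5%. The G-box (CACGTG) and the root hair element RHE were found in 0 members, and in 7.1% and 0.9% of promoters. The motifs and the sequences shown were chosen after the values were seen, and a match is a description of letters only.

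The make-up of the family changed with As(V) in a way that does not depend on the scaling of libraries. XTH genes took 0.210% to 0.269% of the FPKM sum of the 6 mock libraries. With As(V) they took 0.182% and 0.189% at 1.5 h, 0.0913% and 0.0966% at 6 h, and 0.0726% and 0.0835% at 24 h, below every mock library. The summed FPKM of the family at 1.5 h was nevertheless higher with As(V), 2224 ± 81.1 against 1724 ± 102 (SD, n = 2), as the FPKM sums of those As(V) libraries were higher. XTH14 and XTH31 together fell from 42.0% and 44.0% of the family in mock at 1.5 h to 16.2% and 16.3% with As(V). With As(V) they were at 11.9% and 12.1% at 6 h and 33.8% and 31.9% at 24 h. As this pair led the family in mock, a lower share elsewhere could be partly built in. XTH22, XTH23 and XTH24 together, a sum formed after their values were seen, took 2.00% to 2.76% in mock. They took 45.6% and 47.3% with As(V) at 1.5 h, 35.2% and 41.1% at 6 h, and 7.17% and 9.27% at 24 h. These shares carry no test.

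**Figure D4:**
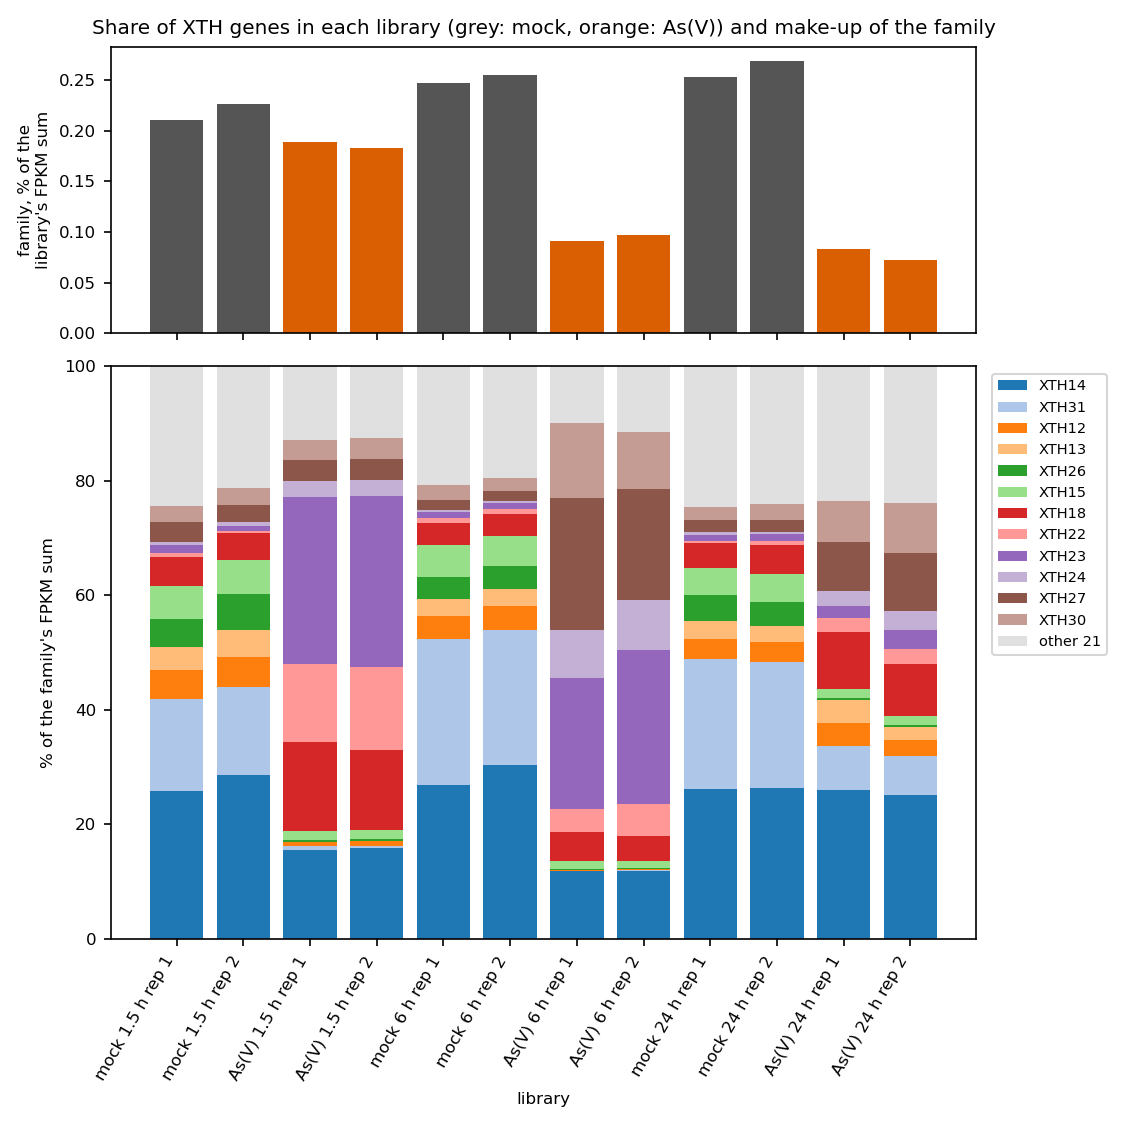
Upper panel: share of the 33 XTH genes in the FPKM sum of each library, in percent, mock in grey and As(V) in orange. Lower panel: share of 12 members, and of the other 21 together, in the FPKM sum of the family; XTH23 leads with As(V) at 1.5 h (29.2% and 29.9%) and XTH14 in mock (25.8% to 30.4%).

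Other genes of xyloglucan metabolism, 18 of 19 of which were tested, also split. At 1.5 h 3 were higher, 12 lower and 3 not called, at 6 h 6, 10 and 2, and at 24 h 2, 13 and 3. All tested genes were higher in 29.9%, 35.4% and 29.1% and lower in 33.3%, 37.2% and 36% at these times. With library totals, 2 were higher and 16 lower at 1.5 h, 2 and 16 at 6 h, and 2 and 9 at 24 h. At 6 h only CSLC4 and XXT1 of the 6 then remained higher, at 1.05 and 2.69, and CSLC5, CSLC6, XXT5 and MUR3 were called lower; XXT5 at 1.5 h turned from 0.14 to -0.46. Among the glucan synthases that make the backbone, CSLC4 was at 92.0 against 19.4 FPKM at 1.5 h (2.19 ± 0.17, limma, adjusted p = 1.3e-06) and rose by 2.22 ± 0.16 at 6 h, while CSLC12 was at 2.40 against 29.5 (-3.17 ± 0.16, adjusted p = 4.1e-08). XXT1, a xylosyltransferase that adds the first side chain sugar, rose from 19.2 to 100.4 FPKM at 1.5 h (2.33 ± 0.09), from 18.6 to 285 at 6 h (3.87 ± 0.09) and from 12.9 to 27.9 at 24 h (1.07 ± 0.10). Of the side chain enzymes, XUT1, which adds galacturonic acid in root hairs, fell, with a change of -3.06 ± 0.23 at 1.5 h and -1.62 ± 0.11 at 24 h, and AXY4, an O-acetyltransferase, by -2.15 ± 0.18 at 1.5 h. The galactosyltransferase gene MUR3 rose by 0.74 ± 0.08 at 6 h (-0.41 with library totals, limma, adjusted p = 0.00087), and the fucosyltransferase gene FUT1 by 0.51 ± 0.10 at 24 h. Among trimming enzymes, the α-fucosidase gene AXY8 fell, with a change of -1.66 ± 0.10 at 6 h and -1.13 ± 0.08 at 24 h, and the α-xylosidase gene XYL1 by -1.41 ± 0.11 at 6 h.

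The other touch genes, which encode calmodulin and related proteins, were compared because XTH22 is one of the class. TCH3 was at 1183 against 92.6 FPKM at 1.5 h (3.69 ± 0.29, limma, adjusted p = 1.1e-05) and 311 against 68.2 at 6 h (2.17 ± 0.30, adjusted p = 0.00027). At 24 h it was at 61.5 against 48.9 FPKM (0.42 ± 0.32, adjusted p = 0.28). TCH1 rose by 0.58 ± 0.09 at 1.5 h (-0.03 with library totals, adjusted p = 0.76) and fell at 6 and 24 h, with changes of -0.65 ± 0.10 and -1.56 ± 0.09. TCH2 was at 44.1 against 37.8 FPKM at 1.5 h (0.23 ± 0.12, adjusted p = 0.11; -0.36 with library totals, adjusted p = 0.028) and fell, with a change of -0.91 ± 0.14 at 6 h.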

How the data were processed

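The values are the authors' deposited FPKM values of 12 libraries. The unit was read from the values, whose files are titled as normalized counts. Per the submitters' processing notes, edgeR, HTSeq 0.6.0, STAR 2.5.4 and Trim Galore were used with the build TAIR10 (the notes do not say for which step), and per the labels' protocols the libraries were stranded and read at 50 bases from 1 end. The members and lists were chosen with earlier results of these data known.

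Within a gene, FPKM values were taken to be whole multiples of the value of 1 read. Such a step, with a tolerance of 0.05 reads, could be found in 9549 (41.2%) of the 23156 genes that had enough values; for the others a relation to exon length was used, so estimated reads are approximate. A first version of this estimate gave steps that were too small and was replaced before any comparison was fitted. Estimated reads served for precision weights, the filter, other scalings, the chi-square between replicates and the simulation, and not for the levels or changes of the main fit.

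Genes with at least 1 FPKM and 10 estimated reads in at least 2 libraries were tested, 19899 in all. In R 4.3.3, limma 3.58.1 fitted log2(FPKM + 1) with 1 coefficient per group over all 12 libraries, voom weights and robust empirical Bayes moderation (residual degrees of freedom 6, prior 4.39 at the median). Between replicates, Pearson's r of log2 values was 0.979 to 0.984. Their estimated reads differed by more than sampling noise, with a chi-square per degree of freedom of 2.65 to 9.91, so no library was a copy of its replicate.

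The fit was tested on simulated data with 200 changed genes among 19118, drawn from the mock levels at 6 h with an assumed noise. It found 25 of 25 rises and 16 of 25 falls of 8-fold, 25 and 21 of 4-fold, 18 and 12 of 2-fold, and 7 and 2 of 1.5-fold, with 3 false calls and 0 wrong signs. In the real comparison at 6 h, 72.6% of tested genes were called, while the scaling of the simulated libraries was right by construction. False calls and wrong signs in the real comparison were therefore not measured. The missed falls of 8-fold were genes of at most 5.23 FPKM in mock. A first pass mark on the recovery of all 8-fold changes was not met for this reason. A changed noise with a lower mark was run once and discarded. The mark was then replaced by full recovery of 4-fold and 8-fold changes at 20 FPKM or more, with the noise of the simulation as first set. It was set after the misses were seen, a 4-fold fall at 19.1 FPKM in mock among them, so passing it was fixed in advance. Falls of weakly expressed genes were found less often than rises. Changes of 1.5-fold were also missed at high levels, up to 196 FPKM in mock for falls and 268 for rises.

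Values in every library are given for up to 5 highest and 5 lowest called members at each time, with no overlap between groups and a mean of at least 5 FPKM over the 4 libraries, and for members called in opposite directions. Up to 3 pathway and touch genes each way followed the same rule. Alternatives were other scalings, weights, pseudocounts, filters, the replicate block, the 4 libraries compared alone and each library left out.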

Additional observations from a re-analysis of the deposited data

Results flagged for a closer look

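Effects of As(V) that differed between times by a test of the difference itself (limma, Benjamini-Hochberg over all tested genes) are listed here, for the members called in opposite directions and for the counts. The effect at 24 h lay below that at 1.5 h by -2.09 for XTH4, -1.54 for XTH5, -2.83 for XTH18, -2.58 for XTH19, -2.40 for XTH20 and -5.63 for XTH23, on the log2(FPKM + 1) scale. The effect at 6 h lay below that at 1.5 h by -1.84 for XTH19 and -2.90 for XTH20. Over the family, 16 of 27 tested members differed between 6 and 1.5 h and 21 between 24 and 1.5 h. Beside them, 43.3% and 59.5% of all tested genes differed. These differences share the libraries of 1.5 h.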

How the results depend on the processing

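The 10 counts of members and 53 member results were recomputed under 22 other settings; the 4 libraries alone could give only the 6 counts of As(V) against mock. With the deposited scaling replaced by library totals, or by voom on the estimated reads, which uses the same totals, 5 members were higher at 1.5 h in place of 10. Under these settings XTH27 at 1.5 h reversed to -0.041 and -0.042 (not called), and XTH4 at 6 h to -0.35 and -0.37 (called, limma, adjusted p = 0.0050 and 0.0045). XTH4, XTH5, XTH19 and XTH30 lost their call at 1.5 h in both. With no weights and a mean-variance trend, changed together, 6 members in place of 11 were called between 24 and 1.5 h in mock. Leaving out 1 library at a time moved that count to between 7 and 12, with 7 without replicate 1 of mock at 1.5 h and 7 without replicate 1 of mock at 24 h. Among the member results, 4 of those fits lost a call, all of XTH23 or XTH27 at 24 h. Median-of-ratios scaling, both other pseudocounts, both other filters and the 4 libraries alone changed no call among the 53 member results, and neither did the replicate block, under which 10 members were higher at 1.5 h. Replicates share only a number: deviations of same-numbered libraries correlated at -0.12 to 0.13 over 15 pairs of groups. Few reads limit the falls of weakly expressed members.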
